A study of Oryza sativa with 8 samples.

Results

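The genes described here were almost silent in normally watered and in rewatered rice seedlings, and were read out in quantity only in drought. They were chosen from the RNA-seq count table of wild type plants by their level in CPM, the count of a row scaled to a library total of 1000000. A row belonged to the set when its mean over the 2 libraries of a group was under 1 CPM under normal watering, under 1 CPM in recovery, and at least 20 but under 1000 CPM in drought. Of 59903 rows in the table, 99 met this rule. Because the rule used the levels in all 3 conditions, the drought rise and the fall on rewatering of these rows are given as a description and not as a tested result.

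The plants were Oryza sativa seedlings of the MH63 variety, an indica rice, and RNA came from whole seedlings. All seedlings had 14 days of ample watering. Normal wild type plants went on being watered, drought wild type plants had no watering for 15 days and stood near 5% relative soil water at the end, and recovery wild type plants had the same drought and then 4 days of rewatering. A further group, osbzip23 plants in drought, takes no part in the rule. Each of the 4 groups had 2 libraries, and buckets held 30 seedlings. Recovery plants were harvested 4 days after the other groups, so rewatering and the added days cannot be told apart. Normal plants were a parallel watered group, and no library came from plants before drought. The treatment was repeated on separate batches of seedlings, but no label says that a replicate number marks a batch, so the spread between libraries may be partly technical.

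In water-stressed plants the hormone abscisic acid builds up, and its receptors and kinases switch on bZIP transcription factors that bind abscisic acid response elements in promoters. Well-known products of this programme are late embryogenesis abundant proteins and dehydrins, which protect proteins and membranes in drying cells, and enzymes that make compatible solutes such as proline. Many such genes are otherwise read mainly in ripening seeds, which also dry out. This is background: the table names rows by ID alone, 0 of its IDs matched a reference of 39387 rice genes, and the files do not pair an ID with a gene name. Which of these products, if any, the 99 rows encode was not analysed here, and the seedling tissue could not be checked against marker genes. Rows are named below by their position in the table, counting the first row of values as row 1.

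The wild type libraries held from 37400784 to 42894245 counts, so that 1 CPM stood for 37.4 to 42.9 counts. Replicates of a group correlated at a Pearson r of 0.998 across rows in each of the 3 wild type groups, and their counts were further apart than sampling alone gives (chi-square divided by its degrees of freedom, 4.42 to 7.08), so each was kept as a library of its own. For the 99 rows in drought, whose counts were higher, this value was 21.7. The osbzip23 and wild type columns did not correspond row by row. Up to the last of the 99 rows, osbzip23 and wild type drought levels correlated at r = -0.01 across rows on the log2(CPM + 1) scale, against 0.92 for wild type normal and drought. Results therefore come from the 6 wild type libraries. Which of the columns match the row IDs was not tested, so the IDs printed below are labels of the deposited rows alone.

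Together the 99 rows made up more than a hundredth part of the seedling's read-out in drought and a trace in normal and recovery plants. They held 946 and 817 counts in the normal libraries, 556070 and 605778 in the drought libraries, and 1220 and 1253 in the recovery libraries. As a share of all counts this was 0.00223% ± 0.000071 in normal plants, 1.37% ± 0.056 in drought and 0.0032% ± 0.0000015 in recovery (SD, n = 2 each). The median row stood at 0.143 CPM in normal plants. It stood at 54.8 CPM in drought and at 0.274 CPM in recovery, on a scale that is not corrected for gene length. In whole seedlings, less RNA per cell and fewer cells that express a gene cannot be told apart.

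**Figure D1:**
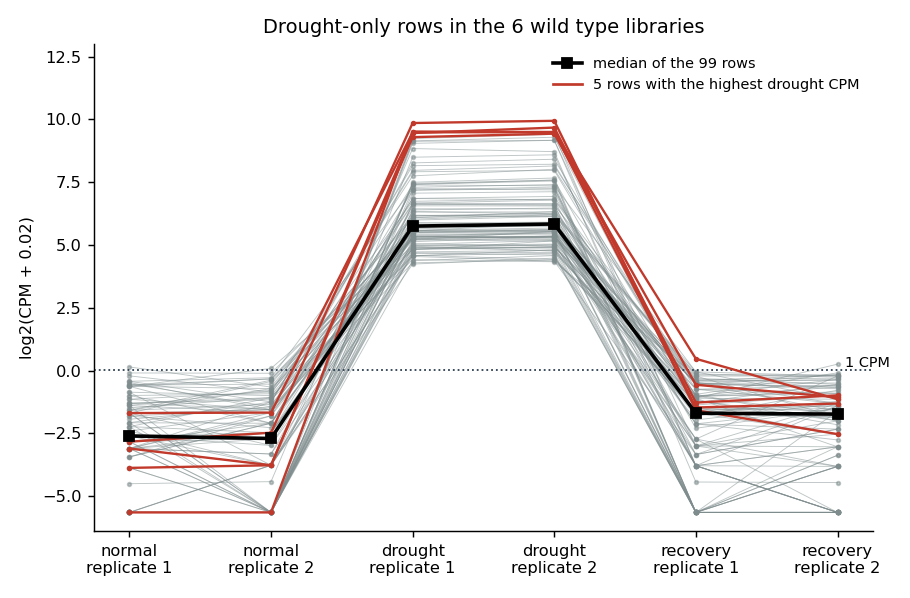
Level of each of the 99 rows (grey lines) in the 6 wild type libraries, as log2(CPM + 0.02), with the median as black squares, the 5 rows with the highest drought level in red, and a dotted line at 1 CPM. In every row both drought libraries lay above all normal and recovery libraries, with a lowest drought value of 18.9 CPM against a highest value of 1.37 CPM elsewhere, and this gap was set by the rule.

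Silent was a fair name for a minority of the rows in the strict sense of no reads. No count was seen in any normal or recovery library for 7 of the 99 rows. A further 14 rows had 0 counts in both normal libraries and at least 1 in recovery, and 4 rows had 0 counts in both recovery libraries and at least 1 under normal watering. In 63 rows every normal and recovery library held at least 1 count. By their counts, most of the rows were thus barely read rather than without reads. How reads shared between similar genes were treated is not given in the sources used here. Whether these few counts are reads of the same genes was not tested. A count of 0 over both libraries allows a level of up to 0.0381 CPM under normal watering and 0.0389 CPM in recovery, if up to 3 counts could have been missed in the pair. Such limits, and the intervals given below, include nothing but counting error.

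By the size of the drought level, 45 of the 99 rows stood at 20 to 50 CPM, 23 at 50 to 100 CPM, 15 at 100 to 200 CPM, 7 at 200 to 500 CPM and 9 at 500 to 1000 CPM. The drought counts were concentrated in few rows. The 11 highest rows held more than all others together, and the 10 highest held 48.1% of the set's drought CPM.

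Row 37409 (ID OsMH_10G0002700) had the highest drought level of the set. It held 5 and 6 counts in the normal libraries, 38586 and 42205 in the drought libraries, and 12 and 6 in the recovery libraries. In drought this was 955 ± 41.3 CPM (SD, n = 2). All 4 libraries from watered plants were low and both drought libraries high, with a ratio of 6842 over normal (95% counting interval 3824 to 13708) and of 4096 over recovery (2592 to 6912).

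Row 37605 (ID OsMH_10G0034500) came next. Normal libraries held 4 and 2 of its counts, drought libraries 29261 and 35011, and recovery libraries 15 and 19. Its drought level was 759 ± 80.9 CPM (SD, n = 2), and drought replicate 2 was the higher library. Both recovery libraries lay above both normal libraries, although all 4 stayed under 0.5 CPM.

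Row 38228 had 0 counts in both normal libraries, 30506 and 30795 in drought, and 13 and 15 in recovery. Against the floor of 3 counts its drought level of 725 ± 9.74 CPM (SD, n = 2) was at least 19037-fold higher than under normal watering. Over recovery the ratio was 1998 (95% counting interval 1382 to 3007). This row had no reads under normal watering and a small number in recovery.

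Row 30620 held 12 and 11 counts in the normal libraries, 29782 and 31049 in drought, and 52 and 17 in recovery. Its recovery libraries differed more than those of any other of the 5 leading rows, at 1.37 and 0.434 CPM, so its mean of 0.9 CPM was just inside the limit because of recovery replicate 2. Row 16614 held 2 and 2 counts in normal plants, 26147 and 29603 in drought, and 25 and 18 in recovery. Both of these rows had more counts in each recovery library than in either normal library.

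The 7 rows with no count outside drought stood between 22.3 and 192 CPM in drought, and 0 of them were among the 16 rows of the set at 200 CPM or more. Row 3825 led them with 7528 and 8706 drought counts, or 192 ± 15.8 CPM (SD, n = 2), at least 5041-fold above normal and at least 4939-fold above recovery. Row 23460 had 4088 and 4209 drought counts, or 98.1 ± 0.051 CPM, and row 28513 had 2863 and 3071, or 70.1 ± 2.07 CPM (SD, n = 2 each). The other 4 lay between 22.3 and 47.2 CPM in drought.

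Across the set, drought exceeded normal watering by 35.1-fold at the least, with a median of 430-fold when rows at 0 counts are set at the floor of 3 counts. The same values over recovery were 38.1-fold and 370-fold. With the same floor, at least 100-fold over both conditions was reached by 68 of the 99 rows, and at least 1000-fold over both by 25. The smallest ratio over normal belonged to row 36317, with 26 and 39 normal counts, 1288 and 1160 drought counts, and 12 and 14 recovery counts.

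In edgeR's quasi-likelihood test over 22898 rows, 99 of the 99 rows were called higher in drought than under normal watering at an adjusted p under 0.05, where 35.3% of all tested rows were and 72.7% were called in either direction. On rewatering 99 of 99 were called lower than in drought, against 37.3% of all tested rows called lower and 75.5% called in either direction. The rule chose the rows on these same contrasts, and both comparisons share the drought libraries, so nothing is read from these counts. The fitted log2 fold change of drought over normal had a median of 8.82 in the set and of 0.00 over all rows tested. For recovery over drought the medians were -8.40 and -0.01. Among the 74 rows with counts in both normal and recovery plants they were 8.12 and -7.01.

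The rule's limits, apart from the upper one in drought, cut through a continuum. Of 11069 rows that stayed under 1 CPM in normal and recovery plants and had a count in any wild type library, 10162 were under 1 CPM in drought too, 688 lay at 1 to 5 CPM, 117 at 5 to 20 CPM, 99 at 20 to 1000 CPM and 3 at 1000 CPM or more. Just inside the drought limit were rows 9948, 20363 and 8620, at 20.3, 20.6 and 20.7 CPM. Just outside it were rows 14080, 18432 and 12704, at 19.7, 19.4 and 19.1 CPM. The 3 rows above the upper limit, 14048, 28691 and 37411, reached 1207 ± 75, 1606 ± 23.6 and 2673 ± 34 CPM in drought (SD, n = 2 each).

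On the side of normal watering, rows 15515, 28046 and 36317 were just inside at means of 0.913, 0.851 and 0.835 CPM, and rows 7630, 2682 and 13596 just outside at 1.04, 1.19 and 1.36 CPM. On the recovery side, rows 30620, 28046 and 6318 were just inside at 0.9, 0.894 and 0.868 CPM, and rows 20627, 34117 and 2959 just outside at 1.02, 1.04 and 1.09 CPM. In 4 of the 99 rows a single normal or recovery library reached 1 CPM or more, and in 2 a single drought library was under 20 CPM. At the normal, recovery and lower drought limits, the nearest rows inside and outside differed by less than the larger of their SDs between libraries. At the upper drought limit the nearest rows, 37409 and 14048, stood further apart than that, at 955 ± 41.3 and 1207 ± 75 CPM (SD, n = 2 each).

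How low these rows stood in recovery plants can be read without the recovery step of the rule. Rows under 1 CPM in normal plants and at 20 to 1000 CPM in drought numbered 116, and the recovery libraries took no part in that choice. Of these, 99 (85.3%) were under 1 CPM in recovery, and the highest of the 116 stood at 2.91 CPM. The median recovery level was 0.436% of the drought level, and the highest was 5.02%. Rows near silence under normal watering and in this range in drought were all within a few CPM of silence after 4 days of rewatering. The 17 rows that missed the limit had drought levels of 24.2 to 592 CPM.

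The reverse reading gave 111 rows under 1 CPM in recovery and at 20 to 1000 CPM in drought. Of these, 99 (89.2%) were under 1 CPM in normal plants, which took no part in that choice. A single row of the other 12 had 5 CPM or more, at 20.1 CPM under normal watering.

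**Figure D2:**
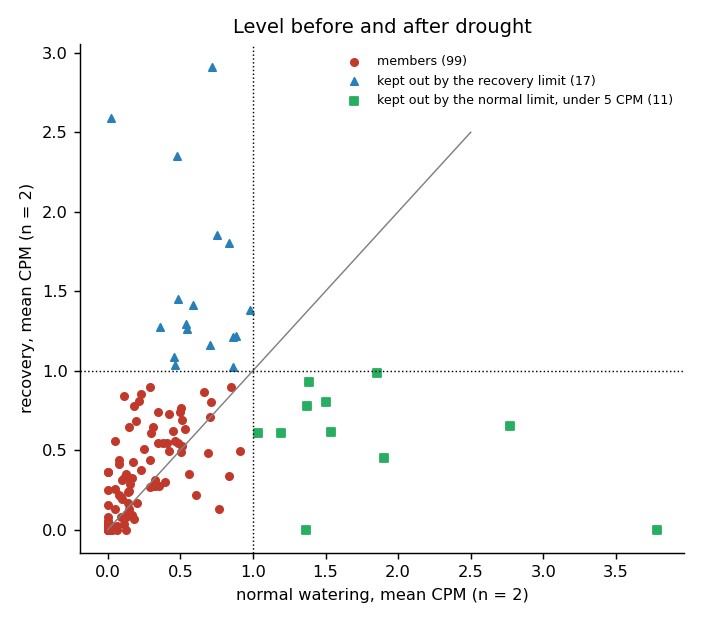
Mean level under normal watering against mean level in recovery (CPM, n = 2 libraries each) of the 99 rows (red circles) and of rows at 20 to 1000 CPM in drought that missed the recovery limit (17, blue triangles) or the normal limit (green squares, the 11 under 5 CPM). Dotted lines mark 1 CPM and the grey line marks equal levels; the highest blue triangle stands at 2.91 CPM in recovery.

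The rule was also applied to 1 replicate number at a time, and the chosen rows were read in the other. Replicates of a group agreed closely across rows, so the overlap is a description and not independent support. When the rule was applied to the replicate 1 libraries alone, it found 102 rows, and 93 of them (91.2%) met it again in the replicate 2 libraries. Applied to replicate 2 alone it found 101 rows, of which the same 93 (92.1%) met it in replicate 1. In the rows chosen on replicate 1, the replicate 2 libraries had medians of 0.16 CPM in normal plants, 56.5 CPM in drought and 0.268 CPM in recovery. Rows chosen on replicate 1 that missed the rule in replicate 2 were near its limits in drought and recovery, with a lowest drought value of 18.3 CPM and a highest recovery value of 1.33 CPM, while the highest normal value was 7.57 CPM. With 1 library a condition on each side, no test applies.

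Expression confined to a single condition was seen for drought and for neither of the other conditions at these limits. With the same limits, 0 rows were at 20 to 1000 CPM under normal watering alone and 0 in recovery alone, against 99 in drought alone. These counts are not like for like. Normal and recovery plants were both watered at harvest, so a row confined to either would have to differ between watered groups. The mirror image of the set, rows under 1 CPM in drought and at 20 to 1000 CPM in both normal and recovery plants, held 71 rows. A single row was high in normal and drought plants and under 1 CPM in recovery, and 0 were high in drought and recovery and under 1 CPM in normal plants.

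The small level counted in watered plants was higher in recovery than under normal watering in most of the rows. The mean was above normal in 64 of the 99 rows, below it in 28 and equal in 7, the rows with no counts in either. The summed level of the set was 22.8 and 21.8 CPM in the normal libraries and 32 and 32 CPM in the recovery libraries, a ratio of 1.43, and of 1.41 without row 30620. Both recovery libraries lay above both normal libraries in 35 rows and below both in 9. With TMM scaling these counts were 40 and 7, and the ratio was 1.64. Among 9728 other rows under 1 CPM in normal and recovery plants, with a count there, 45.6% had a recovery mean above normal. Both recovery libraries lay above both normal libraries in 12.1% of these other rows and below both in 18.3%. These shares are at library size scaling. The fitted log2 fold change of recovery over normal had a median of 0.67 in the set and of 0.00 over all rows tested. Among the 74 rows with counts in both conditions the median was 0.60.

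Row by row, a minority of these differences were called in a test. All 99 rows entered it, but their drought counts alone would have carried them through its filter. In a fit of the normal and recovery libraries alone, 53 of them passed. In edgeR's quasi-likelihood test, 32 of the 99 rows were called between recovery and normal plants at an adjusted p under 0.05, 27 higher and 5 lower in recovery, against 34.8% of all 22898 tested rows, 18.1% higher and 16.7% lower. With a minimum of 2-fold, 29 of the 99 stayed called, 25 higher and 4 lower in recovery, against 6.96% of all tested rows. How the set compared with all rows thus depended on the fold limit, and the rule limited both levels, so neither count is read as a result about the set. Without recovery replicate 2 the count was 17 of 99, where 24.8% of all rows were called. In a fit of these 4 libraries alone it was 12 of the 53 rows that passed its filter, against 40.6% of all rows, and in a fit with the osbzip23 libraries 11 of 99, against 9.77%. The split over all rows depended on scaling, with 4155 higher and 3813 lower under TMM and 2646 and 7356 under library size alone. TMM raised recovery over normal by 0.19 on the log2 scale.

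The rows with the largest excess of recovery over normal were 4675, 13973 and 30620. Row 4675 held 4 and 5 counts in normal plants, 2722 and 3155 in drought, and 32 and 33 in recovery. Row 13973 held 11 and 7, then 2964 and 3185, then 34 and 32 counts. In both rows the recovery libraries agreed closely and lay above the normal libraries, at 0.842 ± 0.002 and 0.855 ± 0.053 CPM (SD, n = 2 each).

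The rows with the largest shortfall of recovery against normal were 39806, 36317 and 15515. Row 39806 held 30 and 30 counts in normal plants, 6322 and 6275 in drought, and 3 and 7 in recovery. Row 15515 held 38 and 34, then 1862 and 1885, then 18 and 20 counts. These rows were picked for this shortfall, and in each of them both recovery libraries lay below both normal libraries. Over the whole set the recovery mean was below normal in 28 of the 99 rows and above it in 64.

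The same comparison was made in other barely read rows. Rows under 1 CPM in normal and recovery plants with at least 10 counts over those 4 libraries were grouped by their drought mean. Both recovery libraries lay above both normal libraries in 16.2% of 4903 rows under 1 CPM in drought, 16.1% of 634 rows at 1 to 5 CPM, 23.3% of 90 rows at 5 to 20 CPM and 44.6% of 74 rows at 20 to 1000 CPM. Both lay below in 26.1%, 28.4%, 22.2% and 12.2%. The summed recovery level was 0.9, 0.879, 1.07 and 1.43 times the normal level. With TMM scaling these ratios were 1.03, 1.0, 1.22 and 1.63, so the direction of the lowest classes depended on scaling and that of the drought-only rows did not. This comparison was made after earlier results of these data were known, and it was not tested.

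**Figure D3:**
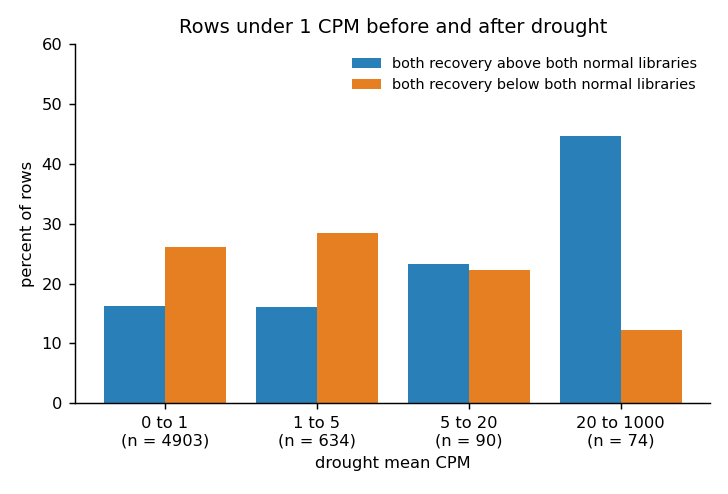
Percent of rows under 1 CPM in normal and recovery plants, with at least 10 counts there, in which both recovery libraries lay above (blue) or below (orange) both normal libraries, by mean CPM in drought. Blue rises from 16.2% to 44.6% and orange falls from 26.1% to 12.2% between the first and the last class, at library size scaling.

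Across the 99 rows, levels under normal watering and in recovery had a Spearman rho of 0.72. The drought level had a rho of -0.22 with the normal level and 0.01 with the recovery level. The rule limited all 3 levels, which restricts the range of each of these values. These describe rows that share the same 6 libraries and their depth, on a scale not corrected for gene length. Single rows differed widely in what was left in watered plants. Row 3262 had 19080 and 18030 drought counts with 1 count in each of the 4 other libraries. Row 10479 had 4803 and 4788 drought counts with 9 and 8 counts in normal plants and 17 and 46 in recovery.

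The drought libraries differed slightly in this set, and mostly in the same direction. Drought replicate 2 was the higher library in 70 of the 99 rows (70.7%) and in 42.1% of 8551 other rows at 20 to 1000 CPM in drought. The median log2 ratio of replicate 1 over replicate 2 was -0.06 in the set and 0.02 in the other rows. Among the 16 rows of the set at 200 CPM or more, 14 were higher in replicate 2, against 44.7% of 754 other rows at 200 to 1000 CPM. With TMM scaling 76 of the 99 rows and 47.5% of the 8551 other rows were higher in replicate 2. The rule used the mean of both libraries, so the direction was not fixed by it. Among 228 other rows of that range that were at 1 CPM or more under normal watering and at least 8 times higher in drought, 58.8% were higher in replicate 2. Of the 72 of these 228 rows at 200 to 1000 CPM, 63.9% were. Rows are not replicates, and with 2 libraries this difference between them was not tested.

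In size the difference was small. The median coefficient of variation between drought libraries was 4.23% in the set and 3.77% in the other rows. The 3 rows with the widest gap were 11434, 26998 and 12527, with 28 and 35.8, 46.8 and 58.4, and 37.2 and 46.4 CPM in drought replicates 1 and 2. Replicate 2 was the higher library in these 3 rows. Their normal and recovery means stayed under 0.61 CPM, far below either drought library.

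**Figure D4:**
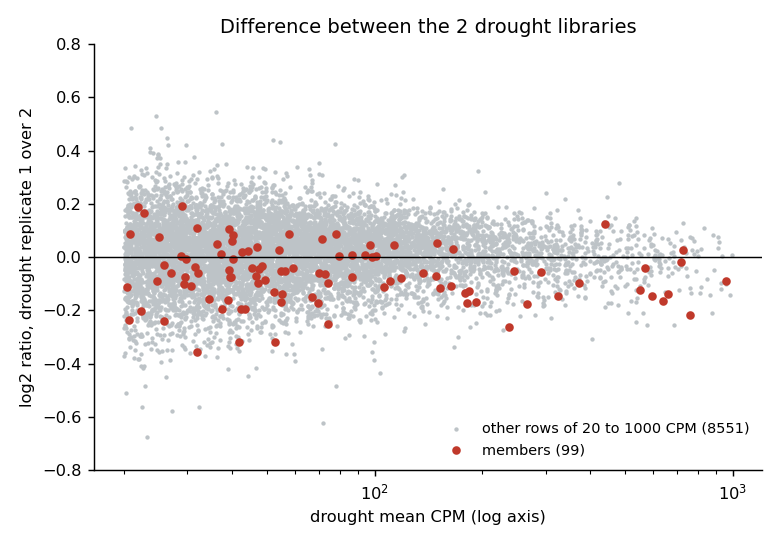
Log2 ratio of drought replicate 1 over replicate 2 against mean drought CPM (log axis) for the 99 rows (red) and 8551 other rows of 20 to 1000 CPM (grey, 7 of them outside the drawn range). Most red points, 70 of 99, lie below the line of equal levels.

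The rows were spread through the table, from row 379 to row 40788. They made up from 0.777% to 1.72% of the rows at 20 to 1000 CPM in drought in each stretch of 5000 rows, and 1.14% overall. No pair stood on consecutive rows, and 2 pairs stood at most 5 rows apart. Row numbers are positions in the deposited table, and no source used here shows that they follow the chromosomes.

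The closer of these pairs, rows 36315 and 36317, stood at 32.1 ± 0.942 and 29 ± 2.72 CPM in drought (SD, n = 2 each). The other pair, rows 37405 and 37409, lay in a stretch that was high in drought, which was chosen after its values were seen. Row 37405 held 4 and 0 counts in normal plants, 23315 and 24653 in drought, and 4 and 6 in recovery. Row 37410 stood at 178 CPM in drought against 2.77 CPM in normal plants. Row 37411 stood at 2673 against 0.261 CPM, and row 37412 at 20555 against 1.13 CPM. Of the 8 rows from 37405 to 37412, 5 thus stood far higher in drought, while rows 37407 and 37408 had means under 0.1 CPM in drought. Row 37413, next in the table, stood at 201 CPM in drought and 409 CPM in normal plants. How reads were divided between similar genes is not given in the sources used here, so levels within such a stretch are uncertain.

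Rows directly before or after a row of the set were 197 in number, and 154 of them were tested. In edgeR's quasi-likelihood test 75 of these (48.7%) were called higher in drought than under normal watering and 49 (31.8%) lower, where 35.3% and 37.3% of all tested rows were. Of the 197 neighbours, 121 stood at 1 CPM or more under normal watering. No share over all rows was set beside this count, so nothing is read from it. Whether the share called higher differs from that over all rows was not tested.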

How the data were processed

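RNA was extracted from seedlings with a plant column kit and made into Illumina TruSeq libraries, per the labels' protocols. The authors deposited a table of whole-number counts per gene row, with a column for each sample, per the file headers; the values are not normalized. STAR 2.7.10a, StringTie 2.1.7 and fastp 0.23.0 are the tools listed, per the submitters' processing notes. The genome build, annotation, strand setting and treatment of shared reads are not given in the sources used here, so counts of similar or overlapping genes are uncertain.

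CPM was computed from column totals. Because the osbzip23 rows did not correspond to wild type rows, tests used the 6 wild type libraries in a single edgeR 4.0.16 fit (R 4.3.3; TMM, filterByExpr by group, quasi-likelihood F-test, two-sided, 3 residual degrees of freedom), with p-values adjusted by Benjamini-Hochberg over 22898 rows and called under 0.05. All 99 rows of the set passed the filter, but drought alone would have carried them through it. Fold intervals are exact 95% intervals for a ratio of summed counts. A count of 0 was set at 3 counts over the group. The procedure was tried on simulated data for drought against normal alone, and no result here rests on it. Recovery against normal was not simulated. Other settings included DESeq2 1.42.0. The set and the lists were chosen with earlier results of these data known. Rows were named by rank: highest drought level, no counts outside drought, nearest to each limit, largest difference between drought libraries, and largest difference between recovery and normal. Rows 3262 and 10479 were named outside these ranks, as examples. Close pairs and the stretch described with them were named for their position. Python 3.11.15, NumPy 2.4.6, pandas 2.3.3 and SciPy 1.17.1 were used.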

Additional observations from a re-analysis of the deposited data

How the results depend on the processing

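The number of rows in the set was 99 to 102 when single libraries or a replicate number were left out, 100 with TMM or median-of-ratios scaling, and 93 when every library had to meet the rule. It moved with the limits, to 64 at under 0.5 CPM in normal and recovery plants and to 154 at 10 CPM or more in drought. The 99 rows were called in drought against normal and in recovery against drought under each setting tried, which the rule fixed in advance and which is no sign of stability. Over all rows, a minimum of 2-fold lowered the calls from 16641 to 9272 for drought against normal, from 17277 to 10477 for recovery against drought, and from 7968 to 1594 for recovery against normal. The last was 3231 with all 8 libraries in the fit. Leaving out single libraries gave 15249 to 16534, 15953 to 17232 and 5726 to 8586 calls. Rows of the set called between recovery and normal (32 of 99, against 34.8% of all rows) were 12 of 53 that passed the filter in the fit of 4 libraries (40.6%), 11 with all 8 libraries (9.77%), 29 with a minimum of 2-fold (6.96%), and 17 to 32 with a library left out (24.1% to 36.3%). With the replicate number as a block, calls were 16283, 16922 and 7424, and 30 rows of the set were called between recovery and normal (32.4% of all rows). Same-numbered libraries did not deviate together (r from -0.062 to 0.002 across rows), so the numbers were not taken to pair the libraries. Levels under 1 CPM rest on fewer than 43 counts a library on average, which limits comparisons between normal and recovery plants.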

Other observations

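The osbzip23 columns were read at the 99 rows for completeness. In each osbzip23 library 41 of the 99 rows had 0 counts, and 20 rows (20.2%) had a mean of 20 CPM or more, where 18.3% of all rows up to row 40788 had. Because the osbzip23 and wild type columns do not correspond row by row, these values cannot be read as levels of the same genes and say nothing about the genotype.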
